A study of Rattus norvegicus with 16 samples.

Results

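The genes described here encode the neuronal subunits of the nicotinic acetylcholine receptor, Chrna2 to Chrna7 and Chrnb2 to Chrnb4. They were found by symbol in the platform's annotation, and all 9 were on the array among 15037 named genes, each with 1 probe set (called a probe below). The samples were male Wistar rats of 8 to 10 weeks, all breathing 40% oxygen at 6 L/min. A group received 2.4% sevoflurane, a volatile anesthetic, and its control received O2 alone. Another received propofol, an intravenous anesthetic, at 36 mg/kg/hr after a bolus of 10 mg/kg, and its control received Intralipos, a 10% lipid emulsion without the drug, at the same doses. After 60 min, the lateral habenula (LHb), medial habenula (MHb), solitary nucleus (Sol) and medial vestibular nucleus (MVe) were cut by laser from brain sections, and 1 Affymetrix array was run for each of the 16 combinations of region and treatment.

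Nicotinic receptors are pentameric cation channels in the membrane that open when acetylcholine or nicotine binds. The alpha subunits 2, 3, 4 and 6 form the binding site together with beta 2 or beta 4, whereas alpha 5 and beta 3 are accessory subunits that need such partners. Alpha 7 can form a channel by itself. The medial habenula, whose cholinergic neurons project to the interpeduncular nucleus, is known for dense expression of alpha 3, beta 4 and beta 3, and inhaled anesthetics are known to inhibit several receptors of this family.

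Values are log2 signals, so a difference of 1 is a doubling, on a scale that was taken from the values and not from the labels. A gene's probe was set against itself in other samples and never against another gene's probe, although the signals of a marker list were also summed. With 1 array per combination, the 4 treatments stood in for replicates of a region and the 4 regions for replicates of a treatment, and the labels do not say which arrays came from the same rats. P-values therefore measure the spread between these arrays, and may be too small where arrays share rats. In tissue, fewer cells of a type and less RNA per cell cannot be told apart. The mean over all probes was 7.20 to 7.21 in the sevoflurane and O2 arrays and 6.97 to 6.99 in the propofol and Intralipos arrays, called the sevoflurane set and the propofol set below, and anesthetics were compared only with the control of their own set. A probe was called dim in a region where its mean was under the 95th percentile of the means of 1057 olfactory receptor genes there, a limit of 4.93 for LHb, 4.97 for MHb, 4.95 for Sol and 5.16 for MVe.

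Markers were compared with the labels. Tac3, the neurokinin B gene of the medial habenula, averaged 15.75 in MHb, Htr2c was highest in LHb at 16.51, Dbh and Th, which make noradrenaline, were above the limit in Sol alone at 11.03 and 11.14, and Slc6a5, the neuronal glycine transporter, was highest in MVe at 14.10. Phox2a, another marker of the solitary nucleus list, was dim there at 4.19. The LHb arrays held medial habenula markers as well, and unequally. Tac3 in LHb was 11.50 with sevoflurane, 10.94 with O2, 9.86 with propofol and 8.37 with Intralipos. All 10 measured markers of the medial habenula list were above the dim limit in LHb, where their summed signal was 16.90 to 17.51 on the log2 scale against 18.46 to 18.87 in MHb. The summed signal was 16.36 to 16.72 in MVe, where 3 of the 10 were dim, and 14.70 to 15.05 in Sol, where 2 were dim. Most of the list was thus above the limit outside the habenula too. The sums lean on Calb2, which alone read 16.33 to 16.69 in MVe and averaged 16.52 in LHb against 14.20 in MHb. They therefore do not measure the other markers of the list. Of the 7 measured markers of the lateral habenula list, 4 were higher and 3 lower in LHb than in MHb (median 1.51), and Gpr151, one of them, was lower in LHb (-2.26 ± 0.25). Over all genes, 14.1% were called higher and 14.4% lower in this contrast (limma, adjusted p under 0.05). Errors of differences written with ± are moderated standard errors from limma.

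The level differed by region for 8 of the 9 subunit genes in limma's moderated F test over all genes (adjusted p under 0.05), where 54.1% of all genes were called. MHb stood highest for most of them: against the mean of the other 3 regions 7 were higher and 1 was lower, beside 20.5% of all genes higher and 20.1% lower. In both array sets the MHb arrays lay above every array of the other regions for 6 of the 9 genes, a pattern seen in 9.52% of all genes, and below every one for 1, as for 8.90% of all genes. The median absolute difference of MHb from the other regions was 2.88 over the 9 genes and 0.28 over all genes. Lists of other cell types moved with the same contrast. MHb minus the other regions was lower for 8 and higher for 0 of 10 astrocyte markers (median -3.18), lower for 9 and higher for 0 of 11 of oligodendrocytes (-0.55), lower for 6 and higher for 0 of 6 of endothelium (-1.3) and lower for 6 and higher for 0 of 9 of microglia (-0.67). It was lower for 7 and higher for 2 of 13 neuronal markers (-0.85), lower for 1 and higher for 4 of 11 of choroid plexus and ependyma (0.32), and lower for 2 and higher for 0 of 4 of blood (-1.35). Their part in the subunit differences was not tested. The number of the 9 genes that were dim was 1 for MHb, 3 for LHb and for Sol, and 4 for MVe.

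**Figure D1:**
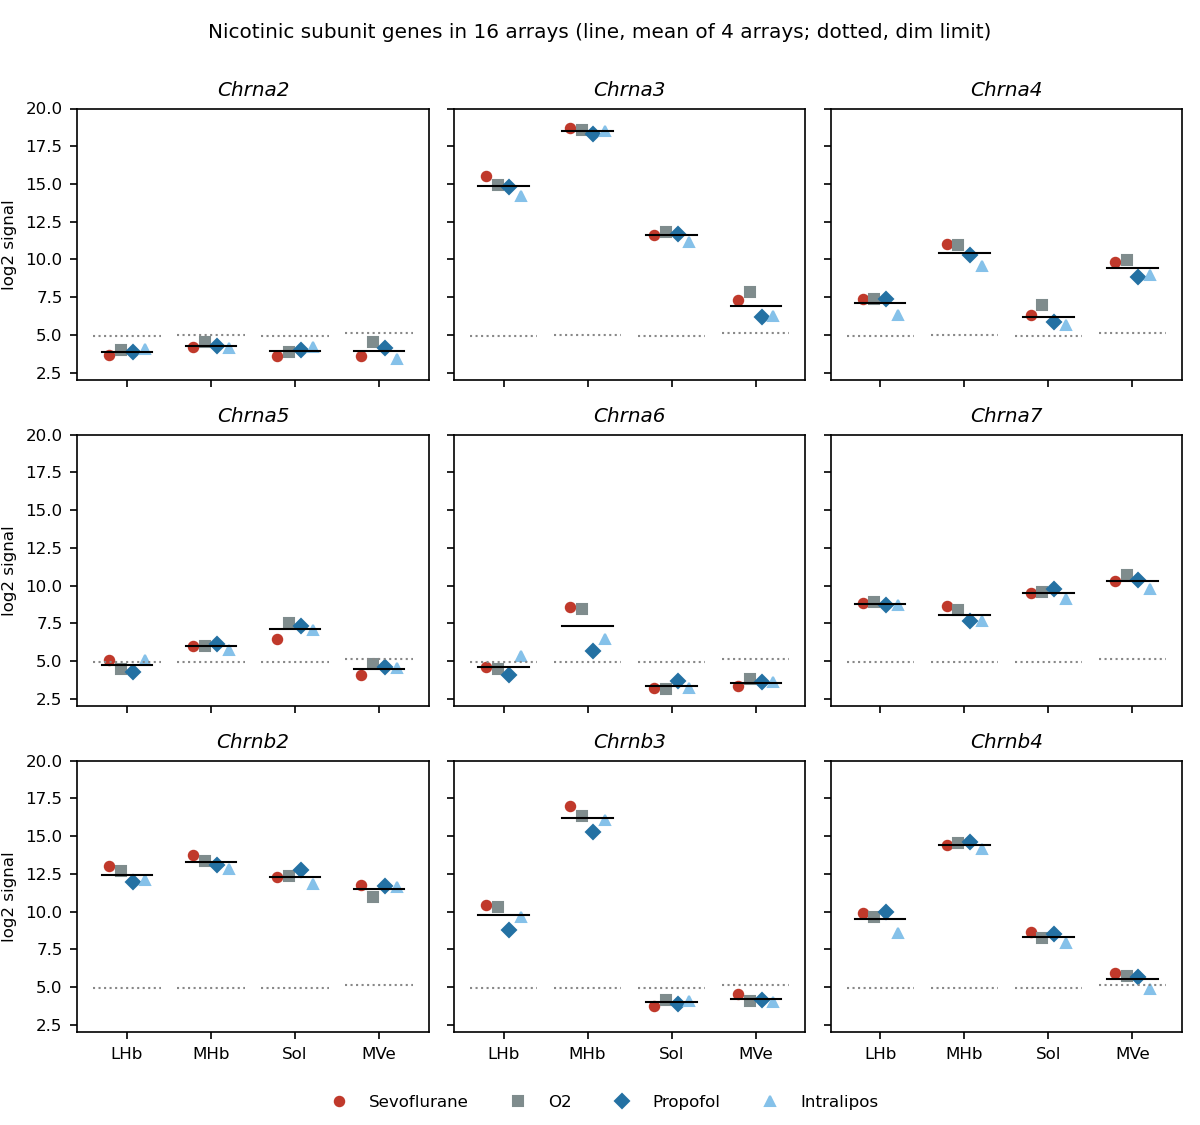
Log2 signal of each of the 9 subunit genes (vertical axis) in LHb, MHb, Sol and MVe (horizontal axis). Each point is 1 array, marked by treatment, the solid line is the mean of the 4 arrays of a region, and the dotted line is the dim limit. Chrna3, Chrnb3 and Chrnb4 span the widest ranges, with MHb highest, and Chrna7 is lowest in MHb.

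Chrna3 and Chrnb4 encode the partners of the ganglionic type of receptor, and lie next to each other on chromosome 8 with Chrna5, with 0 other protein-coding genes between neighbours in RefSeq. Their upstream sequences are shown, with that of Chrna7, because Chrna3 and Chrnb4 followed the same order over the regions while Chrna5 and Chrna7 did not. The order is not particular to these neighbours. Chrnb2, on another chromosome and not printed, had the same order of means, although its LHb and Sol did not differ past the threshold. Each is the 250 bases before the annotated start, 5′ to 3′ in the direction of the gene, from RefSeq on the GRCr8 build. Capitals mark GC boxes (GGGCGG, on either strand) and the E box CACGTG.
Chrna3 (chr8:64311252-64311501, minus strand): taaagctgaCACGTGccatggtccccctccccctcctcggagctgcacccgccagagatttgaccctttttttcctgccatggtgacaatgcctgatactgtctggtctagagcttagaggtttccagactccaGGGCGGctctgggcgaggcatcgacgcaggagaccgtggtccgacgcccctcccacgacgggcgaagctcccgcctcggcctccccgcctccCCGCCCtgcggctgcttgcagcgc
Chrnb4 (chr8:64333110-64333359, minus strand): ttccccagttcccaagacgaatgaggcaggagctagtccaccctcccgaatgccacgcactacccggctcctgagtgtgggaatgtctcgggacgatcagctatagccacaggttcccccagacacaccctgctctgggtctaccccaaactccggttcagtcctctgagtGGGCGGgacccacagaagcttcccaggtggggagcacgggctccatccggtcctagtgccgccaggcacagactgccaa
Chrna5 (chr8:64265629-64265878, plus strand): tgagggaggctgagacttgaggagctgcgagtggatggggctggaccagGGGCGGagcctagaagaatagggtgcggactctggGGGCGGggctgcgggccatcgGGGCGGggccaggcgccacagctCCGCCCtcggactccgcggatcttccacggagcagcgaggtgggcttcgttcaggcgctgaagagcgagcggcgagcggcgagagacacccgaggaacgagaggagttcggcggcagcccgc
Chrna7 (chr1:126249130-126249379, minus strand): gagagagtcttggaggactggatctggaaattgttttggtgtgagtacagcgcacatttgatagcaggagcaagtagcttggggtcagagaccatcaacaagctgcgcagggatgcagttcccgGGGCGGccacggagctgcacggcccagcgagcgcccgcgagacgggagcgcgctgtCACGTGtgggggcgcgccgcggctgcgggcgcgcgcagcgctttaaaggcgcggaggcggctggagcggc

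Upstream sequences were given for 6 of the 9 genes (Chrna3, Chrna4, Chrna5, Chrna7, Chrnb2 and Chrnb4). The GC box was present in 6 of these 6 and in 30.5% of 33469 promoters of the same length. Chrna5 held 4 of them, Chrna3 held 2, and Chrnb4 and Chrna7 held 1 each. The 6 sequences were rich in G and C, from 59.6% to 74.4%, beside a median of 51.2% over all promoters. CACGTG was present in 2, Chrna3 and Chrna7, and in 5.60% of all promoters. The E box CAGCTG and the POU4 core AATTAAT were present in 0 of the 6, and in 12% and 2.70% of all promoters. The motifs were searched on both strands, did not overlap in the printed sequences, and such matches describe the letters only.

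Chrna3, the alpha 3 subunit, differed between every pair of regions. It averaged 18.52 ± 0.17 in MHb, 14.87 ± 0.55 in LHb, 11.59 ± 0.30 in Sol and, lowest, 6.91 ± 0.82 in MVe (SD, n = 4). Its signal in MHb was 18.71 with sevoflurane, 18.58 with O2, 18.31 with propofol and 18.48 with Intralipos, and in LHb, in the same order, 15.52, 14.94, 14.82 and 14.18. Sol gave 11.65, 11.84, 11.70 and 11.15, and MVe 7.31, 7.87, 6.18 and 6.29. The arrays of the 4 regions did not overlap, in the order MHb, LHb, Sol, MVe, and even MVe stayed above the dim limit. LHb was lower than MHb, with a difference of -3.65 ± 0.23 (12.6-fold, adjusted p = 7.7e-10), and Sol was 4.67 ± 0.23 higher than MVe, a 25.5-fold difference with limma's adjusted p = 3.8e-11. The most alike of all genes over the 16 arrays, after subtraction of each array set's mean, were Cacnb3 (Pearson r = 0.994) and Cacna1e (0.992), which encode calcium channel subunits, and Rtn4rl1 (0.992). These correlations describe 16 arrays of 4 regions that share their dissections.

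Chrnb4, the beta 4 subunit, had the same order, and all 6 pairs of regions differed. It read 14.38, 14.54, 14.64 and 14.17 in MHb with sevoflurane, O2, propofol and Intralipos, and 9.93, 9.63, 9.95 and 8.58 in LHb. In Sol it read 8.67, 8.25, 8.53 and 7.92, and in MVe 5.93, 5.74, 5.66 and 4.90, where 3 of 4 arrays were at or above the dim limit. The MHb arrays stood apart from all others, whereas LHb with Intralipos (8.58) fell within the range of Sol across the sets. Within its own set it lay above the Sol arrays (8.53 and 7.92). MHb was 6.63 ± 0.14 above the mean of the other regions (99.0-fold, adjusted p = 1.3e-16, limma), and LHb exceeded Sol by 1.18 ± 0.17 (2.27-fold, adjusted p = 4.0e-05). Across the arrays Chrnb4 and Chrna3 had a Pearson r of 0.96. Fzd1, a Wnt receptor, was most alike (r = 0.995), followed by Zmat4 (0.994) and Tspan13 (0.992).

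Chrna5, the accessory subunit next to both on the chromosome, had another order, with Sol highest. It measured 6.44 with sevoflurane, 7.52 with O2, 7.32 with propofol and 7.08 with Intralipos in Sol, against 6.00, 5.98, 6.14 and 5.76 in MHb. LHb had 5.10, 4.47, 4.28 and 5.07 and MVe 4.05, 4.80, 4.58 and 4.51, both dim by their mean, although 2 LHb arrays exceeded the limit. Sol lay above MHb in all 4 treatments, and MHb above LHb and MVe. MHb minus Sol was -1.12 ± 0.23 (adjusted p = 7.3e-04), a call lost in the sevoflurane set alone (-0.99, adjusted p = 0.0622). Sol was at least 3.82-fold higher than MVe and at least 4.22-fold higher than LHb, where the dim mean was replaced, array by array, by the higher of the dim limit and its own value. LHb and MVe differed by 0.24 with a 95% interval of -0.25 to 0.74 (adjusted p = 0.507). Its correlation over the arrays was 0.28 with Chrna3 and 0.31 with Chrnb4. The genes most like it were Tacr3, the neurokinin 3 receptor (r = 0.943), Mtmr9 (0.935) and Grin2b, an NMDA receptor subunit (0.931).

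Chrna5 was also the gene whose broad contrasts were least firm. MHb exceeded the mean of the other regions by 0.53 ± 0.19 (adjusted p = 0.032), and the call was lost when any of 5 arrays was left out, LHb O2, MHb O2, MHb Propofol, MHb Sevoflurane or MVe Sevoflurane, with 0.44 to 0.58 and adjusted p from 0.0510 to 0.141. The habenula (mean of LHb and MHb) was lower than the hindbrain (mean of Sol and MVe), at -0.44 ± 0.16 (adjusted p = 0.0441), and any of 10 arrays ended that call, with -0.45 to -0.34. These were LHb O2 and Propofol, MHb O2 and Intralipos, and the O2, Propofol and Intralipos arrays of Sol and MVe. Quantile normalization (-0.36), median centring (-0.36) and a test of all probes that are not controls (-0.44) also ended it. So did the use of the sevoflurane set (-0.31) or the propofol set (-0.56) alone. MHb against the other regions lost its call with all probes (0.53), in either set alone (0.60 and 0.47) and in the control arrays alone (0.29).

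**Figure D2:**
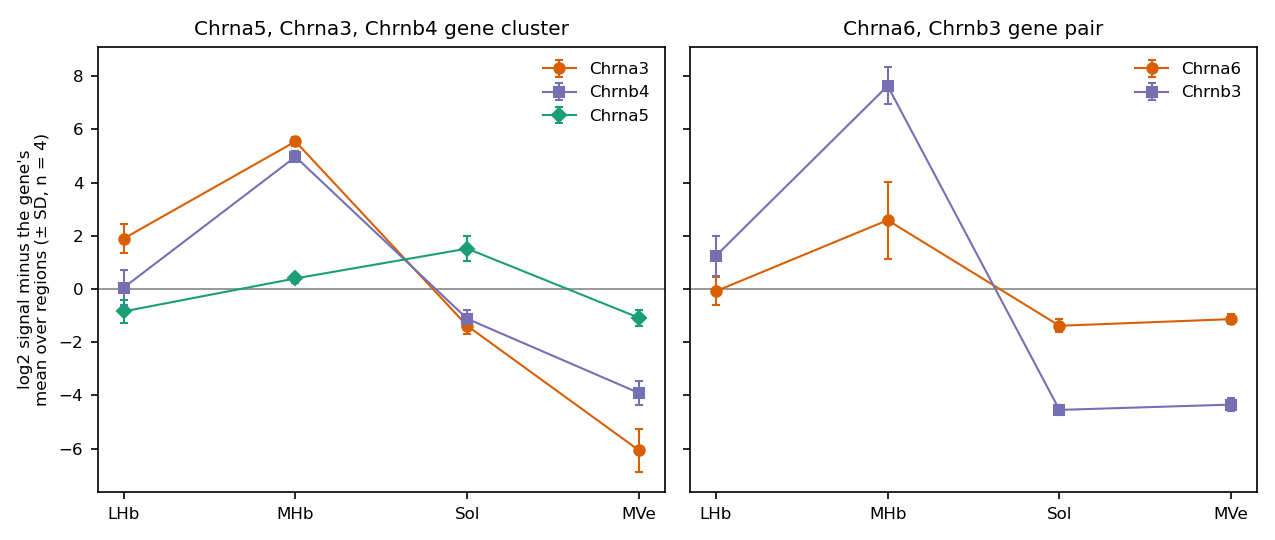
Mean log2 signal of a gene in each region (horizontal axis) minus its mean over the 4 regions (vertical axis, log2), with SD bars over 4 arrays, for the Chrna5, Chrna3 and Chrnb4 cluster and for the neighbours Chrna6 and Chrnb3. Lines only join the points of a gene. Chrna3 and Chrnb4 peak in MHb while Chrna5 peaks in Sol, and both genes of the pair on the right peak in MHb.

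Chrna6 and Chrnb3, neighbours on chromosome 16 with 0 protein-coding genes between them, encode a binding subunit and an accessory subunit that often share a receptor. Chrnb3 was confined by the dim limit to the habenula: it was dim in Sol (3.78, 4.18, 3.90 and 4.09 with sevoflurane, O2, propofol and Intralipos) and in MVe (4.53, 4.07, 4.18 and 3.99). In MHb it reached 17, 16.32, 15.30 and 16.07, and in LHb 10.42, 10.29, 8.77 and 9.63. The groups of LHb, MHb and hindbrain arrays did not overlap. LHb minus MHb was -6.39 ± 0.25 (83.9-fold, adjusted p = 1.5e-12), and MHb was at least 2390-fold above Sol and at least 2070-fold above MVe. Sol and MVe could not be ordered (-0.20, 95% interval -0.73 to 0.32). Kcnma1, the pore of the BK potassium channel, was most alike (r = 0.995), before Necab3 (0.993) and Syt9 (0.992).

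Chrna6 was above the dim limit in MHb, where its values lay apart between the array sets. MHb read 8.58 with sevoflurane and 8.46 with O2, but 5.67 with propofol and 6.46 with Intralipos. LHb read 4.59, 4.48, 4.09 and 5.33, so only its Intralipos array exceeded the limit, and Sol (3.14 to 3.68) and MVe (3.34 to 3.78) were dim in every array. By the means of the 4 arrays, MHb was at least 4.79-fold higher than LHb, a bound that the propofol set alone did not reach. In the fit LHb minus MHb was -2.67 ± 0.44 (adjusted p = 1.0e-04), with -3.98 in the sevoflurane set and -1.36 in the propofol set. MHb minus the other regions differed between the sets by 2.61 ± 0.37 (95% interval 1.81 to 3.40), with an adjusted p of 0.0827 that misses the threshold. The adjusted p of every other subunit gene was 0.839 or more in this test. Array set and the drug and control used in it cannot be told apart. LHb exceeded Sol by 1.3 ± 0.44 (adjusted p = 0.0357), a difference between dim means that leaving out any of 6 arrays ended: LHb Intralipos (0.97), LHb Propofol (1.35), LHb Sevoflurane (1.42), Sol Intralipos (1.28), Sol O2 (1.11) or Sol Sevoflurane (1.16). Chrna6 correlated with Chrnb3 over the arrays at r = 0.92. The most alike genes were Trarg1 (0.951), Stau1 (0.949) and Erc2 (0.946).

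Chrna4 and Chrnb2 form the most widespread receptor of the brain, and their regional orders were not the same. Chrna4, the alpha 4 subunit, was highest in MHb and next in MVe. It measured 11.04, 10.94, 10.27 and 9.56 in MHb and 9.81, 9.97, 8.86 and 8.99 in MVe with sevoflurane, O2, propofol and Intralipos, against 7.38, 7.39, 7.38 and 6.32 in LHb and 6.33, 6.96, 5.89 and 5.64 in Sol. Within each treatment MHb exceeded MVe, MVe exceeded LHb, and LHb exceeded Sol. All 6 pairs differed, from 0.92 ± 0.19 for LHb minus Sol (adjusted p = 0.00128), a call lost in the control arrays alone (0.56, adjusted p = 0.166) and in the sevoflurane set alone (0.74, adjusted p = 0.0517), to 4.25 ± 0.19 for MHb minus Sol (19.0-fold, adjusted p = 2.1e-12). Sol was lower than MVe, at -3.20 ± 0.19, a 9.19-fold difference with limma's adjusted p = 3.1e-10. The most alike genes were Tmem72 (r = 0.971), Clgn (0.964) and Ndufa4 (0.959).

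Chrnb2, the beta 2 subunit, varied least in range among the 8 genes called. With sevoflurane, O2, propofol and Intralipos, MHb read 13.75, 13.36, 13.10 and 12.83, and LHb 13.02, 12.69, 11.93 and 12.12. Sol read 12.30, 12.36, 12.73 and 11.84, and MVe 11.75, 10.96, 11.70 and 11.61. LHb and Sol overlapped, and their difference was 0.13 with a 95% interval of -0.35 to 0.61. MHb exceeded MVe by 1.75 ± 0.23 (3.36-fold, adjusted p = 4.4e-06). LHb was lower than MHb, at -0.82 ± 0.23 (adjusted p = 0.0102), a call lost without the LHb Propofol array (-0.60, adjusted p = 0.0648). It was also lost in the sevoflurane set (-0.70) and in the control arrays alone (-0.69). Sol minus MVe (0.80 ± 0.23, adjusted p = 0.00980) was lost without the Sol Propofol array (0.61) or the MVe O2 array (0.57), and in the control arrays alone (0.81). In the propofol set alone, 4 calls were lost: Sol minus MVe (0.63), LHb minus MVe (0.37, against 0.93 over all arrays), MHb minus Sol (0.68) and habenula minus hindbrain (0.52). Ptbp2 (r = 0.964), Cds2 (0.963) and Rad23b (0.962) were most alike. Chrna4 and Chrnb2 correlated over the arrays at r = 0.20, while Chrnb2 correlated with Chrna3 at 0.86 and with Chrnb4 at 0.88.

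Chrna7, which encodes the subunit of the homomeric receptor, ran opposite to most of the others, lowest in MHb and highest in MVe. MVe gave 10.30, 10.72, 10.38 and 9.77 with sevoflurane, O2, propofol and Intralipos, Sol 9.51, 9.58, 9.77 and 9.11, LHb 8.83, 8.90, 8.69 and 8.70, and MHb 8.63, 8.35, 7.68 and 7.65. The order MVe, Sol, LHb, MHb held within every treatment, and all 6 pairs differed. MHb was lower than the other regions, at -1.44 ± 0.15 (2.71-fold, adjusted p = 2.3e-07), and lower than MVe, at -2.21 ± 0.18 (4.63-fold, adjusted p = 1.1e-08). LHb exceeded MHb by 0.70 ± 0.18 (adjusted p = 0.00619), with 0.38 in the sevoflurane set, where the call was lost (adjusted p = 0.311), and 1.03 in the propofol set. The call of LHb minus Sol was lost in the control arrays alone (-0.55, adjusted p = 0.217) and within either array set (-0.68 and -0.75). That of Sol minus MVe was lost in the propofol set alone (-0.63, adjusted p = 0.0941). The correlation of Chrna7 with Chrna3 over the arrays was -0.96 and with Chrnb4 -0.92. Clip4 (r = 0.963), Pacsin2 (0.962) and Crot (0.958) were most like it.

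Chrna2, the alpha 2 subunit, was dim in all 4 regions, with 0 of 16 arrays above the limit. Its arrays ranged from 3.65 to 4.08 (LHb), 4.16 to 4.53 (MHb), 3.62 to 4.22 (Sol) and 3.44 to 4.53 (MVe). It was the member not called by region, and MHb minus the other regions was 0.38 ± 0.15 (adjusted p = 0.0539).

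Between both parts of the habenula, LHb was lower than MHb for 7 of the 9 genes and higher for 1, beside 14.4% of all genes lower and 14.1% higher. The LHb arrays were not free of medial habenula markers, and of the 10 markers 9 were lower in LHb than in MHb and 1 was higher, with a median of -3.49. Tac3 fell by 5.58 ± 0.37, Chat by 5.26 ± 0.18, Slc18a3 by 5.03 ± 0.22 and Slc5a7 by 4.65 ± 0.21 on the log2 scale. Beside these, Chrnb3 fell by 6.39, Chrnb4 by 4.91, Chrna3 by 3.65, Chrna4 by 3.33 and Chrna6 by 2.67. How far medial habenula tissue sets the LHb levels was not tested. Between the hindbrain nuclei, Sol was higher than MVe for 4 genes (Chrna3, Chrnb4, Chrna5 and Chrnb2) and lower for 2 (Chrna4 and Chrna7), beside 19.3% and 16% of all genes. Marker lists differed there too. The summed signal of oligodendrocyte markers was 17.57 to 18.09 in Sol and 19.64 to 20.23 in MVe. That of choroid plexus and ependyma was 10.16 to 15.17 and 17.01 to 18.28. Astrocyte and microglia markers summed higher in Sol. Their part in the subunit differences was not tested. The habenula exceeded the hindbrain for 6 genes and was lower for 2, Chrna5 and Chrna7, beside 18.3% and 19.8%. Of these, the Chrna5 call was lost in most alternatives, as given above. Of the remaining pairs, MHb was higher than Sol for 6 genes and lower for 2 (18.9% and 19.8% of all genes). MHb was higher than MVe for 7 and lower for 1 (21% and 19.9%). LHb was higher than Sol for 5 and lower for 2 (11% and 14.3%), and Chrna6, 1 of the 5, was dim by its mean in both. LHb was higher than MVe for 4 and lower for 2 (13.7% and 13%).

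**Figure D3:**
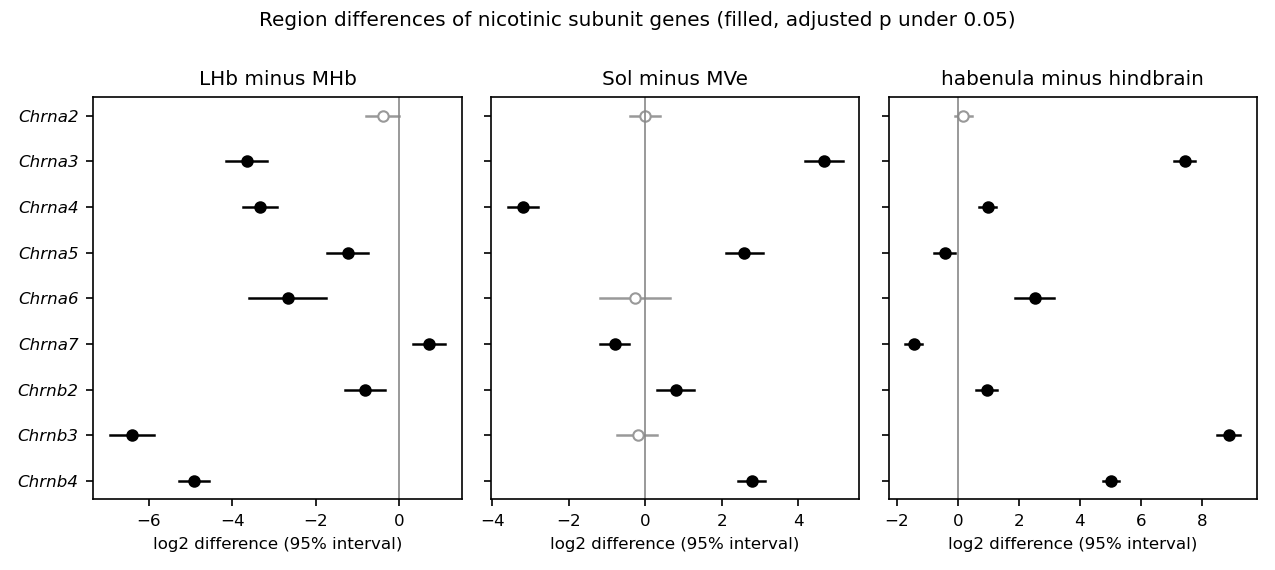
Fitted log2 differences (horizontal axis) of the 9 genes for LHb minus MHb, Sol minus MVe, and habenula minus hindbrain, with 95% intervals. Filled points have an adjusted p under 0.05 and open points do not. LHb minus MHb is below 0 for all genes but Chrna7, and Sol minus MVe runs from -3.20 for Chrna4 to 4.67 for Chrna3.

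The remaining subunits of the family, of muscle (Chrna1, Chrnb1, Chrnd, Chrne and Chrng) and of the inner ear (Chrna9 and Chrna10), were dim in every region, with region means from 3.31 to 4.90. In MHb against the other regions 1 of these 7 was higher, Chrnd, at a dim 4.32 and by 0.37 ± 0.14 (adjusted p = 0.0483), and 0 were lower. Of all genes, 20.5% were higher and 20.1% lower in this contrast, so the list did not stand out in number.

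Of 13 genes that assemble or modulate the receptors, MHb minus the other regions gave 1 higher and 4 lower, beside 20.5% and 20.1% of all genes, so that as a list they did not stand apart in number, with a list median of -0.04 beside 0.01 over all genes. Vsnl1, which encodes the calcium sensor visinin-like 1 known to promote surface expression of alpha 4 receptors, was 9.52 to 9.88 in MHb and 17.28 to 18.60 in all other arrays, with a difference of -8.19 ± 0.11 (292-fold, adjusted p = 4.0e-19). Lypd1, a prototoxin of the Ly6 family, was 4.91 to 5.13 in MHb, near the dim limit, with a difference of -2.69 ± 0.17 (adjusted p = 2.5e-10). Lynx1, another prototoxin that restrains the receptors, was lower too, at -1.24 ± 0.12 (adjusted p = 6.6e-08), as was Ubxn2a, at -0.51 ± 0.14 (adjusted p = 0.00575). Between Sol and MVe, 3 were higher and 5 lower, beside 19.3% and 16% of all genes, led by Ly6h, which was 3.23 ± 0.16 higher in Sol, and by Lynx1 and Ubxn2a, which were lower there, at -2.16 ± 0.14 and -2.12 ± 0.17.

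The genes of acetylcholine itself split in MHb. Of 7 measured, 4 were higher than in the other regions and 3 lower, beside 20.5% and 20.1% of all genes, with a median of 2.65. Chat, which makes acetylcholine, was higher by 5.68 ± 0.14 against a mean that includes a dim MVe, the choline transporter Slc5a7 by 5.38 ± 0.17 and the vesicular transporter Slc18a3 by 4.91 ± 0.18, with limma's adjusted p at most 1.3e-13. Ache, which breaks acetylcholine down, was lower in MHb, at -3.23 ± 0.14 (adjusted p = 2.0e-12). It measured 7.85 to 8.37 in MHb and 11.87 to 12.39 in MVe. In Sol against MVe, 4 were higher and 2 lower, beside 19.3% and 16% of all genes. Slc18a3 was higher by 2.86 ± 0.22 and Slc5a7 by 1.71 ± 0.21, and Prima1, the membrane anchor of Ache, was lower at -1.22 ± 0.16. Chat was among those higher, but it was dim in MVe, at a mean of 4.96.

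Neither anesthetic changed any of the 9 genes past the threshold over the 4 regions. For sevoflurane against O2, limma called 0 of the 9 and 0% of all genes, and at an unadjusted p under 0.05 it had 1 of 9 and 4.99% of all genes. For propofol against Intralipos it called 0 of the 9 and 0.02% of all genes, and at an unadjusted p under 0.05 it had 2 of 9 and 6.92% of all genes. With trended and robust variance estimates both counts were 0 as well. The fitted differences of the 9 genes lay between -0.45 and 0.36 for sevoflurane, with a median of -0.03 beside 0.01 over all genes, and between -0.40 and 0.80 for propofol, with a median of 0.23 beside 0.01.

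**Figure D4:**
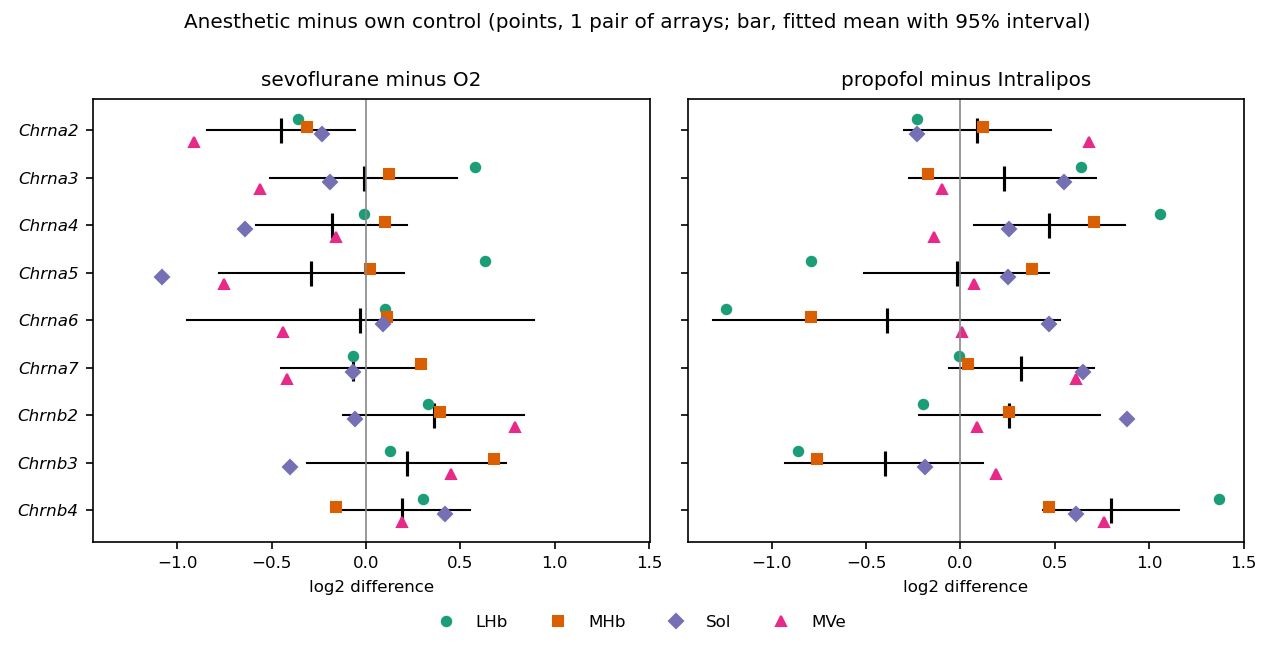
Log2 difference of sevoflurane minus O2 and of propofol minus Intralipos (horizontal axes) for each gene. Points are single pairs of arrays in LHb, MHb, Sol and MVe, and the black bar with its line is the fitted mean over the regions with its 95% interval. The propofol points of Chrnb4 all lie above 0, from 0.47 to 1.37.

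Chrnb4 had the largest difference with propofol. The propofol arrays exceeded those of Intralipos in 4 of 4 regions, with differences of 1.37, 0.47, 0.61 and 0.76 for LHb, MHb, Sol and MVe, and 8.36% of all genes were higher in 4 of 4 regions. It was the 1 subunit gene of which this held, and 0 of the 9 were lower in 4 of 4, beside 6.68% of all genes. The fitted difference was 0.80 ± 0.17 (1.74-fold, 95% interval 0.44 to 1.16), with an unadjusted p of 2.0e-04 and an adjusted p of 0.301 that does not pass, and adjusted values from 0.149 to 0.714 over the alternatives. With sevoflurane the same gene differed from O2 by 0.30, -0.16, 0.42 and 0.19 in LHb, MHb, Sol and MVe, and by 0.19 in the fit (95% interval -0.17 to 0.55). The difference between the effects of the anesthetics was -0.61 (95% interval -1.12 to -0.10, adjusted p = 0.946).

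Chrna4 with propofol was higher in LHb (1.06), MHb (0.71) and Sol (0.26) and lower in MVe (-0.14). Its fitted difference was 0.47 (95% interval 0.07 to 0.87, adjusted p = 0.671), against -0.18 with sevoflurane (-0.58 to 0.22, adjusted p = 0.989). Chrna3 differed by 0.64, -0.17, 0.55 and -0.10 with propofol in LHb, MHb, Sol and MVe, and by 0.58, 0.12, -0.19 and -0.56 with sevoflurane. Its fitted intervals ran from -0.27 to 0.72 and from -0.51 to 0.48. Both signs occurred for this gene with each drug.

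Chrnb3 was lower with propofol in 3 of 4 regions, at -0.86 in LHb and -0.76 in MHb, the regions where it was not dim, with a fitted -0.40 (95% interval -0.93 to 0.12, adjusted p = 0.816). With sevoflurane it was 0.13 in LHb and 0.68 in MHb. Chrna6 was likewise -1.24 in LHb and -0.79 in MHb with propofol, and 0.10 and 0.11 with sevoflurane. Its intervals were wide, -1.31 to 0.53 for propofol and -0.95 to 0.89 for sevoflurane. In LHb its values were dim in 3 of 4 arrays, so the difference there rests on the Intralipos array.

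Chrna5 with sevoflurane had differences of 0.63 and 0.02 in LHb and MHb and of -1.08 and -0.75 in Sol and MVe, and both hindbrain values were negative. The gene was dim by its mean in LHb and in every array of MVe, so only MHb and Sol compare signals above the limit. In that pair of Sol arrays markers differed too: the 9 genes of the solitary nucleus list had a median of -0.43, with 2 of 9 above 0, and the 11 of choroid plexus and ependyma a median of -0.81, with 1 of 11 above 0. Dbh was 10.70 with sevoflurane and 11.88 with O2, Htr2c 10.69 and 12.06, and Ttr 12.18 and 15.10. The part of these differences in the Chrna5 value was not tested. The fitted mean was -0.29 (95% interval -0.78 to 0.20, adjusted p = 0.989). With propofol it was -0.79 in LHb and 0.07 to 0.38 elsewhere. Chrna7 differed by -0.42 to 0.29 with sevoflurane and by -0.01 to 0.65 with propofol, with fitted intervals of -0.45 to 0.31 and -0.06 to 0.71. Chrnb2 had 0.36 with sevoflurane (-0.12 to 0.84) and 0.26 with propofol (-0.22 to 0.74), positive in 3 of 4 regions with each. Chrna2 was lower with sevoflurane in 4 of 4 regions, as were 6.47% of all genes, while 0 of the 9 were higher in 4 of 4, beside 7.18% of all genes. The fitted difference was -0.45 (adjusted p = 0.975), between dim values. It differed by 0.09 with propofol (-0.30 to 0.48). The difference between both anesthetic effects was called for 0 of the 9 genes and 0.0133% of all genes by limma (2 of 9, Chrna4 and Chrnb4, at an unadjusted p under 0.05, beside 5.01% of all genes).

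Single pairs of arrays, which have no replicate check, differed by 1 or more for 3 of the 9 genes in LHb with propofol, Chrnb4 and Chrna4 upward and Chrna6 downward, beside 1.56% of all genes. For sevoflurane in Sol 1 of 9 did, Chrna5, beside 1.38%, and in the other 6 pairs 0 of 9 did, beside 1.03% of all genes in LHb, 1.48% in MHb and 3.6% in MVe with sevoflurane and, with propofol, 2.17% (MHb), 2.51% (Sol) and 1.7% (MVe). The LHb Intralipos array was the lowest of the 4 LHb arrays for Chrna3, Chrna4 and Chrnb4. It was also the lowest for the medial habenula markers Tac3, where propofol minus Intralipos was 1.49, and Slc5a7 (0.62), though not for Chat (-0.50) or Slc18a3 (-0.01). Of the lateral habenula list, this array was lowest for Gpr151 (0.94), which was higher in MHb than in LHb. It was lowest for Htr2c too (16.25 against 16.46 to 16.75), with a difference of 0.21 from propofol. Ranks over the 4 LHb arrays cross the array sets, and the differences given are propofol minus Intralipos. The 10 medial habenula markers had a median of 0.78 in this pair, 7 of 10 above 0, beside 0.01 over all genes. The 7 lateral habenula markers had a median of 0.21, with 5 of 7 above 0. In the sevoflurane pair of LHb the median of the medial habenula markers was 0.42. The part of either marker list in the LHb differences was not tested. Chrnb4 was higher with propofol in MHb, Sol and MVe too, as given above, where markers also differed. In Sol, Ttr was 13.28 with propofol and 7.18 with Intralipos, Dbh 11.39 and 10.16, and Prph 8.51 and 8.91. The solitary nucleus list had a median of 0.15 there (5 of 9 above 0), and choroid plexus and ependyma 0.29 (8 of 11). The latter had 0.53 in MVe (10 of 11), and the medial habenula list 0.23 in MHb (7 of 10). Their part in the Chrnb4 values was not tested.

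**Figure D5:**
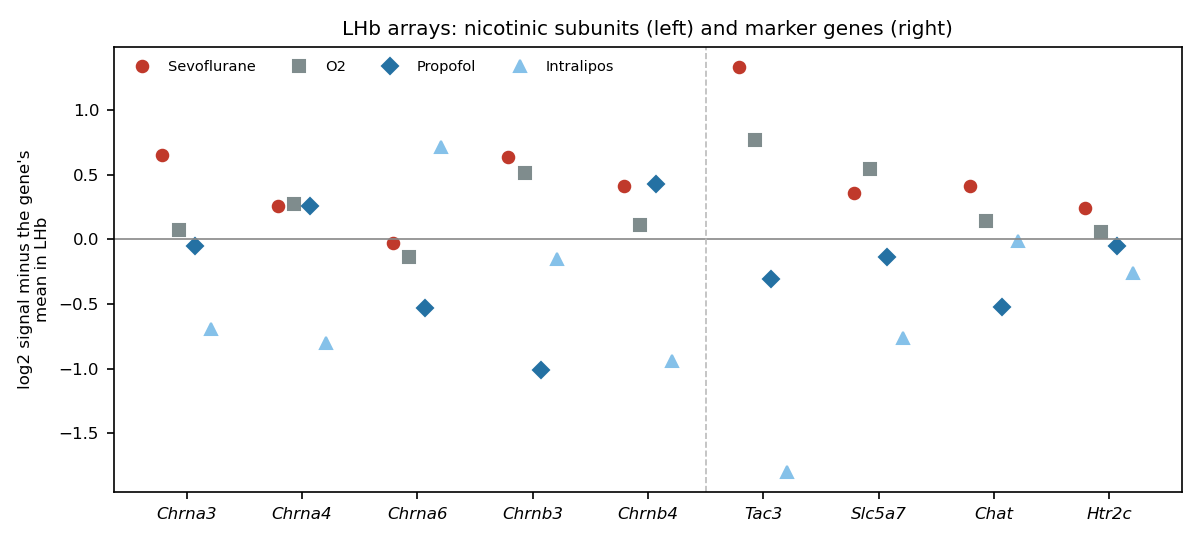
Log2 signal in each of the 4 LHb arrays minus the gene's mean over them (vertical axis), for 5 subunit genes (left of the dashed line) and for the medial habenula markers Tac3, Slc5a7 and Chat and the lateral habenula marker Htr2c (right). The Intralipos array is lowest for Chrna3, Chrna4, Chrnb4, Tac3, Slc5a7 and Htr2c, and highest for Chrna6.

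Whether an anesthetic acted differently in the habenula and the hindbrain was tested by an interaction term, and limma called 0 of the 9 genes and 0% of all genes for either drug. At an unadjusted p under 0.05 there were 1 of 9 for sevoflurane, Chrna5, and 2 of 9 for propofol, Chrna4 and Chrnb3, beside 5.34% and 5.43% of all genes. Chrna5 was dim by its mean in LHb and MVe, and Chrnb3 in Sol and MVe. None of the other nicotinic subunits, modulators or acetylcholine genes passed the threshold for either anesthetic in limma. The smallest unadjusted p among modulators belonged to Psca (-0.48, a dim gene) and Ric3 (-0.33) with sevoflurane and to Tmem35a (0.34) and Vsnl1 (0.20) with propofol. Among acetylcholine genes they belonged to Chat (0.44) and Colq (0.42) with sevoflurane and to Slc5a7 (0.33) and Prima1 (-0.15) with propofol. Among the other subunits they belonged to Chrnd (-0.29) and Chrna1 (0.29) with sevoflurane and to Chrna9 (-0.21) and Chrne (0.22) with propofol. Adjusted p-values of these 12 values lay between 0.760 and 0.989.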

How the data were processed

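The deposited table gives the authors' log2 signals, 1 for each probe on each array. The submitters' processing notes name Affymetrix Expression Console 1.3.0 as the software. How probes were summarized, and on which genome build, is not stated in the labels used here, and the log2 scale was inferred from the values. Of 24834 probes, 94 were controls and 15049 had a symbol in the platform's annotation. The brightest probe of each of 15037 genes was kept, with no filter and no further normalization.

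A linear model with treatment and region was fitted to the 16 arrays with limma 3.58.1 in R 4.3.3 (9 residual degrees of freedom). Interactions of drug with area and of region with array set had 6. Tests were two-sided and adjusted over all genes by the Benjamini-Hochberg method at 0.05. The code was tested on simulated data. Folds against a dim region are lower bounds, computed from the higher of the dim limit and the dim probe's own value in each array. The number of arrays limits the precision.

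The members and lists were chosen with earlier results of these data known. All 9 genes are named in each comparison, with up to 4 called genes of largest change per list (or the 2 of smallest p) and the 3 most alike genes per member. Alternatives left out each array, changed variance model, normalization, probe rule and filter, or used part of the arrays. Averaging the probes of a gene could not change the values of the 9 genes, which have 1 probe each, so its agreement carries no weight.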

Additional observations from a re-analysis of the deposited data

Results flagged for a closer look

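In sevoflurane minus O2, the values in LHb and MHb were all above 0 and those in Sol and MVe all below 0 for Chrna3, where the habenula effect minus the hindbrain effect was 0.73 (limma, adjusted p = 0.949), and for Chrna5, where it was 1.24 (adjusted p = 0.866). For Chrna6 with propofol both habenula values were below 0 and both hindbrain values above it, with a difference of -1.25 (adjusted p = 0.937). None of these differences passed the threshold. Chrna5 was dim by its mean in LHb and MVe, so its values there rest on signals near or under the limit. Chrna3 gave 0.26 without MVe O2, 0.42 without LHb Sevoflurane and 1.2 without Sol O2. Chrna6, which was dim in every hindbrain array, gave -0.23 without LHb Intralipos, -0.53 without MHb Propofol, -1.98 without LHb Propofol and -2.28 without MHb Intralipos.

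An array or region stood far from the other 3 of its group by Dixon's criterion in 3 of 54 groups of 4 values, and chance alone marks about 1 group in 20. Chrna4 in LHb was 6.32 with Intralipos, below the 3 other treatments. Chrna6 was 3.68 with propofol in Sol, above the 3 others but still dim. The sevoflurane difference of Chrna6 in MVe was -0.44, below that of the 3 other regions, again between dim values.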

How the results depend on the processing

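The number of the 9 genes called stayed within 1.5 times of the reported one in every region contrast, and at 0 for both anesthetics, their difference and their area interactions, under every alternative run. The region contrasts between array sets called 1 gene in place of 0 with trended and robust variances for MHb minus Sol, MHb minus MVe and MHb minus the other 3 regions, and 0 to 1 in the last when single arrays were left out (without LHb Propofol or Sol Intralipos it was 1). Centring arrays on their median moved the median of all genes to 0.238 for MHb minus Sol (0.034 as reported) and to -0.17 for Sol minus MVe, and it turned no direction of a called gene. Over the alternatives, 1412 values of called region contrasts kept direction and call, and 50 lost the call, most often those of Chrna5, and the cause was not tested. Chrna2 in MHb minus the other regions passed with trended and robust variances (0.38), quantile normalization (0.37) and median centring (0.50), and without LHb Intralipos (0.41), Sol Intralipos (0.43) or MVe O2 (0.44). The filter kept only genes at or above the median of all gene means, which is not the dim limit. It left out Chrna2, Chrna5 and Chrna6, which have no value there.

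Differences that changed sign were none of them called. Chrna2 in Sol minus MVe (-0.01) was 0.10 after quantile normalization, 0.32 in the propofol set, 0.04 in the controls alone, and -0.21 to 0.16 without single arrays. Chrnb3 in Sol minus MVe (-0.20) was 0.10 in the controls alone and -0.38 to 0.06 without single arrays.

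Leaving out single arrays gave, for sevoflurane minus O2, -0.16 to 0.26 for Chrna3, -0.50 to 0.37 for Chrna6 and -0.24 to 0.02 for Chrna7. For propofol minus Intralipos it gave -0.11 to 0.24 for Chrna2, -0.13 to 0.18 for Chrna5 and -0.75 to 0.14 for Chrna6. For the difference of both effects it gave -0.47 to 0.03 for Chrna3, -0.17 to 0.76 for Chrna6 and -0.12 to 0.30 for Chrnb2.

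Chrna2 was dim in every region, and values of Chrna5, Chrna6 and Chrnb3 in their dim regions have no order. No paired analysis by replicate number was possible because no replicate number pairs arrays (each region and treatment had 1 array). Drug and control arrays were instead matched by region, which is a term of the reported fit, and 0 of the 9 genes were called for either drug.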
